A study of Rattus norvegicus with 141 samples.

Results

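The genes described here encode complement and coagulation factors of rat blood plasma: complement components and their inhibitors, the fibrinogen chains, the clotting factors, and the proteins that restrain clotting or dissolve clots. Membership was by gene symbol alone, from a list of 50 genes. Of these, 48 were read from the gene tables of liver, stomach and duodenum (20 of complement and 28 of coagulation), out of 30562 genes per table. C2 and Mbl2 were not analysed here. Polyadenylated RNA was measured in male and female Sprague-Dawley rats, all adult, wild type and on standard chow. The groups differed in sex and in treatment: a vehicle control, a low dose of 5 mg/kg or a high dose of 50 mg/kg of microplastics. No source used here gives the particle, the route or the duration of exposure. There were 46 liver, 48 stomach and 47 duodenum libraries, 141 in all. Groups of 1 tissue, sex and dose held 8 libraries, except 7 for duodenum female controls and 6 for liver high-dose females. Per the labels, several small frozen pieces of a tissue were pulverised together and their mass varied. The labels assign libraries to batch 1, 2 or 3 and do not say which came from separate animals, so p-values measure the spread between these libraries.

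Complement is a chain of plasma proteases and binding proteins that marks and lyses targets. C1r and C1s serve the classical pathway, Masp1, Masp2 and the mannose-binding lectin Mbl1 the lectin pathway, and Cfb, Cfd and Cfp the alternative pathway, and all meet at C3. C5 to C9 then form the lytic pore, while Cfi, C4bpa, C4bpb and Serping1 hold the chain in check. Coagulation runs from tissue factor (F3) or the contact factors to thrombin (F2), which turns fibrinogen into fibrin. Hepatocytes make most of these plasma proteins, whereas tissue factor, thrombomodulin (Thbd), factor VIII (F8), tissue plasminogen activator (Plat) and the A subunit of factor XIII (F13a1) are known from vessel walls, stroma or blood-derived cells. The tables allow the question of which members are hepatic only and which are also found in gut.

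Libraries summed to between 6153400 and 23717000 estimated counts in liver, 4947800 and 23940200 in stomach, and 5470000 and 25503800 in duodenum. Markers of the labelled tissues were present in the vehicle libraries: hepatocyte markers summed to between 99698 and 159060 CPM (counts scaled to a library total of 1000000) in liver, chief cell markers to between 63958 and 131820 CPM in stomach, and enterocyte markers to between 3317 and 18134 CPM in duodenum. Squamous markers of the forestomach (1252 to 3537 CPM) were in every stomach vehicle library. Pancreatic acinar markers ranged from 0.705 to 52870 CPM among the duodenum vehicle libraries, and up to 320 CPM in liver. One duodenum vehicle library, male control replicate 1, and one low-dose library, female replicate 1, had the highest Alb: 50.9 and 190 CPM, against a median of 1.42 and a maximum of 36.8 CPM in the other 45 duodenum libraries. By the sum of all hepatocyte markers, male control replicate 1 (74.4 CPM) was below male control replicates 5 (120), 6 (92.6) and 7 (79.3) and female control replicate 4 (81.1). That sum includes Apoc3, at 50.9 CPM in the pooled duodenum vehicle libraries, where Alb was at 8.69 CPM. By the sum of Apoh, Tdo2, Tat and Cyp2e1 alone, the highest vehicle library was male control replicate 1, at 3.23 CPM against a median of 0.567. Male control replicate 1 also had the highest macrophage (2400 CPM), fibroblast (3394) and smooth muscle (8839) sums of the duodenum vehicle libraries.

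The stretches upstream of the fibrinogen genes are printed because these neighbours differ in where they were found. Fgg, Fga and Fgb, which encode the gamma, alpha and beta chains of fibrinogen, stand next to each other in the RefSeq gene table of the assembly GRCr8. Each stretch covers the 250 bases before the transcription start, 5′ to 3′ on the gene's strand, from RefSeq (GRCr8). Capitals mark every match on either strand to 2 motifs. CAAAGTCCA is a site of the nuclear receptor HNF4. The TATA box was searched as TATAAA. No matches overlap in these stretches, and for Fga the first of 2 listed starts is shown.
Fga, chr2:170671919-170672168, plus strand: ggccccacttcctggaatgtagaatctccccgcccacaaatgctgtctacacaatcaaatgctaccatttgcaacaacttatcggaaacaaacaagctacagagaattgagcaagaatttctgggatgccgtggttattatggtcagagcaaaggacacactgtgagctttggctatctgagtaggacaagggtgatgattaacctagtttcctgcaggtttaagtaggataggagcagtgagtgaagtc
Fgb, chr2:170700876-170701125, minus strand: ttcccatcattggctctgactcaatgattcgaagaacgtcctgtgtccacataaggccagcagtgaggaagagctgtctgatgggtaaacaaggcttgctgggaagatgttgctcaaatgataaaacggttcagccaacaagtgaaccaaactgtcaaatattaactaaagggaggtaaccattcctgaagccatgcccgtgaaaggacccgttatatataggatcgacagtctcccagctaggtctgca
Fgg, chr2:170652833-170653082, plus strand: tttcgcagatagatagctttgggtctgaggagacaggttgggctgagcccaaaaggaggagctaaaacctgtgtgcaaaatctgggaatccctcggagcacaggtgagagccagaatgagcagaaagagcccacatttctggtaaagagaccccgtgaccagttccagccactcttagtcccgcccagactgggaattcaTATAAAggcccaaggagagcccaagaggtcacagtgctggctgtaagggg

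Promoter stretches were matched for 35 of the 48 members. CAAAGTCCA was present in 1 of 35 (Proz), against 0.338% of all 33469 stretches of the same length, and TATAAA in 1 of 35 (Fgg), against 12.9%. These matches describe letters in a window and do not locate a binding site.

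CPM were compared between tissues in the 16 liver, 16 stomach and 15 duodenum vehicle libraries. A member counted as present in a tissue where its median was at least 1 CPM. By that threshold 18 members were in liver only, 28 were in liver and at least 1 gut tissue (19 in all 3 tissues, 5 in liver and stomach, 4 in liver and duodenum), and 2 were in gut only. The liver-only count depended on the threshold: 15 at 0.5 CPM and 26 at 5 CPM. It was 24 where at least 90% of vehicle libraries had to reach 1 CPM. In the fit over these libraries by edgeR's quasi-likelihood test, with p-values adjusted over 16033 genes, 47 of 48 members differed between liver and stomach at an adjusted p under 0.05, where 82.8% of all genes did, and 47 of 48 between liver and duodenum, where 82% did. Members at least 10-fold higher in liver numbered 38 of 48 against stomach and 39 of 48 against duodenum, while 5.73% and 5.31% of all genes were called at that size. The median difference of the members was 9.69 (log2, liver over stomach) and 9.94 (liver over duodenum), and that of all genes tested was -0.08 and -0.13. In the fits of 1 tissue, 20 members failed the low-count filter in stomach and 19 in duodenum. They entered this joint fit through another tissue, so their call as higher in liver was set in advance. The size of their differences, which enters these counts and medians, rests on few gut counts. Between stomach and duodenum 36 of 48 members were called, near the 76.9% of all genes, with 19 higher in stomach and 17 higher in duodenum. Of the 17, 11 were members found in liver only, each with a median under 1 CPM in both gut tissues. All 11 failed the low-count filter in stomach, and all but C8a and F12 also failed in duodenum and entered through their liver counts. The other 6 were Plg, Proz, Fga, Cfp, C8g and Cfi, of which Plg, Proz and Fga failed the filter in stomach. Of the 19, Masp2, C5, C4bpb and Proc failed it in duodenum. Where a member passed in only 1 gut tissue, the direction of its call was set in advance. Plain CPM and the scaled fit differ: the scaling (TMM) raised liver by a median of 1.05 (log2) over stomach and 1.07 over duodenum, and which of them is nearer to the true tissue difference was not tested.

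**Figure D1:**
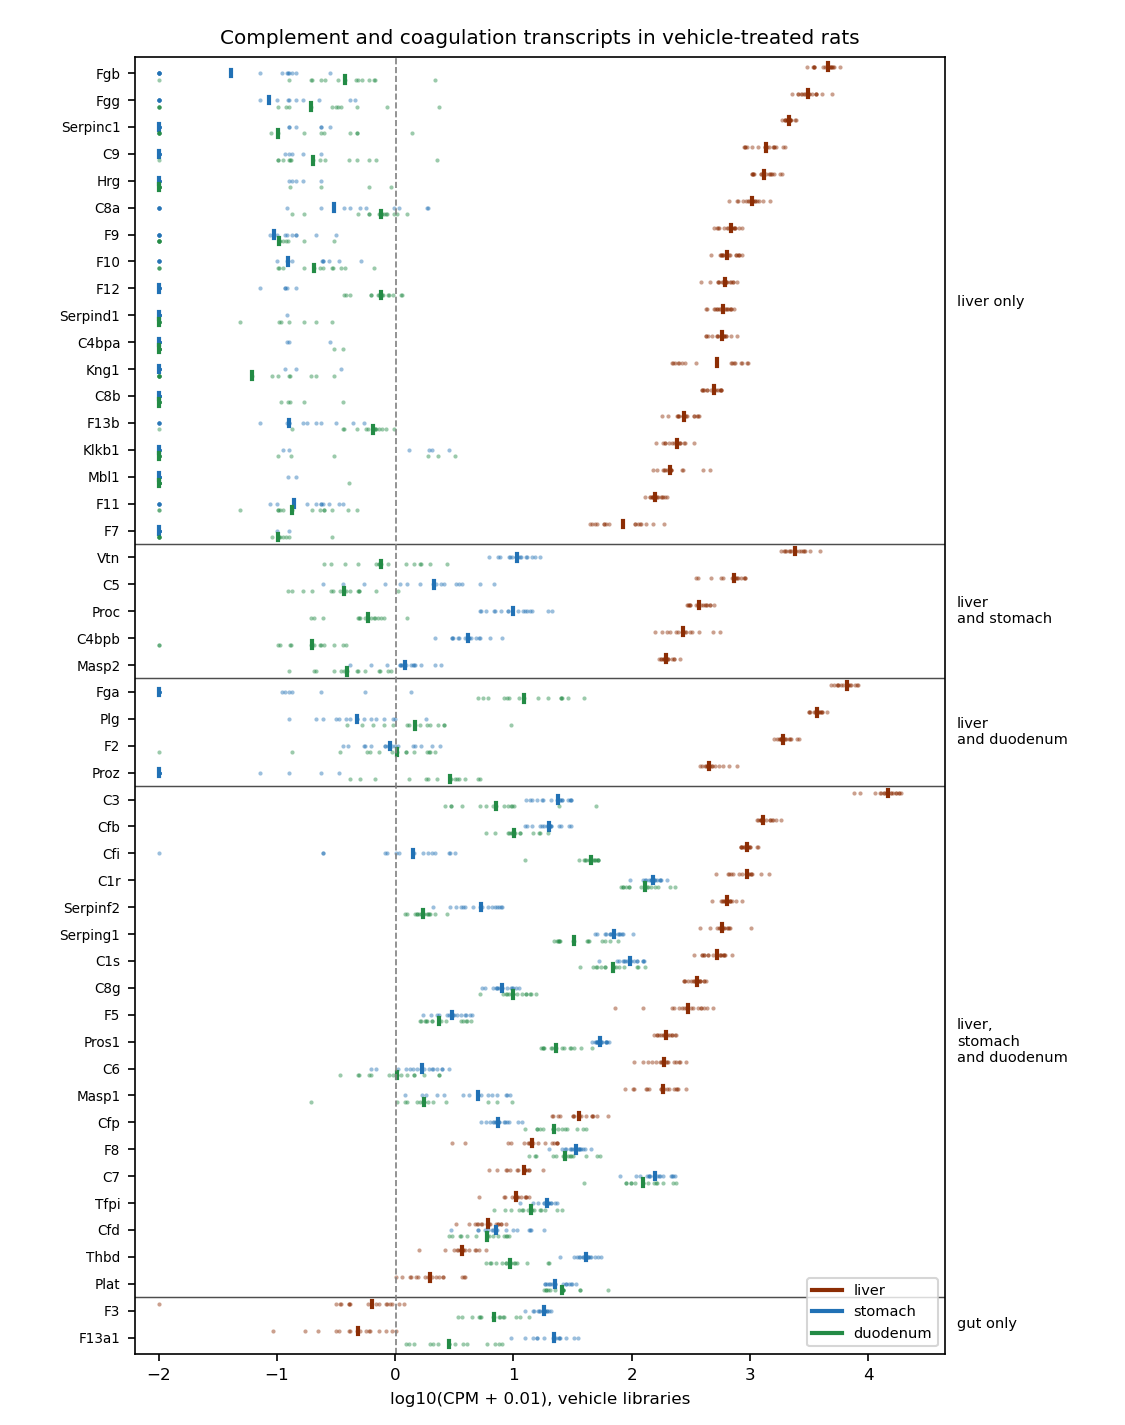
Level of each member in vehicle libraries of liver, stomach and duodenum, as log10(CPM + 0.01), with 1 point for each library and a bar at each tissue's median and genes grouped by where their median reached 1 CPM (dashed line). The 18 members at the top are far to the right in liver only, and the 2 at the bottom, F3 and F13a1, pass the line in both gut tissues and not in liver, and rows can be compared across tissues but not with each other, since gene length was not taken into account.

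The initiating proteases of the classical pathway were strongly represented in gut. C1r, which activates C1s, ranged from 520 to 1464 CPM in liver (median 937), from 96.6 to 198 in stomach (median 151) and from 81.3 to 234 in duodenum (median 131). Its neighbour C1s, which cleaves C4, had medians of 524, 96.2 and 69.5 CPM in the same order. Every liver library was above every gut library for both genes, yet pooled gut levels reached 16.3% (stomach) and 13.9% (duodenum) of liver for C1r, and 18.7% and 13.9% for C1s. Gut shares were lower for the lectin pathway proteases, 2.79% and 1.45% of liver for Masp1 and 0.629% and 0.22% for Masp2 (stomach and duodenum). Masp1 had medians of 183, 5.03 and 1.76 CPM, and Masp2, the protease that cleaves C4 and C2, 194, 1.21 and 0.383 CPM. Mbl1, a lectin that recognises microbial sugars, was between 151 and 459 CPM in liver, and 14 of 16 stomach and 14 of 15 duodenum libraries had no count of it.

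C3, the protein at which the pathways meet, was between 7566 and 18965 CPM in liver (median 14810), 12.7 and 30.5 CPM in stomach (median 24) and 2.65 and 49.7 CPM in duodenum (median 7.13). Gut levels were thus a small fraction of liver, 0.155% in stomach and 0.0714% in duodenum, but no vehicle gut library was without it. Stomach exceeded duodenum by 1.22 ± 0.27 (log2 ± SE, edgeR adjusted p = 8.55e-05). The highest duodenum value came from male control replicate 1, the vehicle library with the highest Alb, macrophage, fibroblast and smooth muscle values, whose part in it was not tested. Cfb, the protease subunit of the alternative C3 convertase, had medians of 1280, 20.1 and 10.1 CPM. Cfd, which cleaves factor B, and Cfp (properdin), which holds the convertase together, were measured in every vehicle library: Cfd had medians of 6.06, 7.16 and 5.99 CPM and Cfp 35.7, 7.43 and 22 CPM. For Cfd the sign of the liver and stomach difference turned with the scaling, from higher in stomach by CPM (135% of liver) to higher in liver in the fit (0.55 ± 0.20, adjusted p = 0.00947).

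Components of the lytic pore split sharply. C7, which anchors the growing pore in membranes, was the reverse of its partners: it was between 6.27 and 17.6 CPM in liver (median 12.3), 79.1 and 233 CPM in stomach (median 158) and 39.5 and 239 CPM in duodenum (median 125). All gut libraries lay above all liver libraries, by 2.72 ± 0.14 in stomach (log2 ± SE, adjusted p = 6.08e-22) and 2.46 ± 0.14 in duodenum (adjusted p = 2.11e-20). C5 and C6, which act just before C7, had liver medians of 740 and 188 CPM and stayed near the threshold in gut, with stomach medians of 2.14 and 1.69 CPM and duodenum medians of 0.359 and 1.03 CPM. C8a, C8b and C9, which insert after C7, were in liver only. C8b was absent from all 16 stomach libraries, where a floor of 3 counts over the group puts liver at least 24462-fold higher by CPM. The third chain of C8, C8g, a member of the lipocalin family, was measured in every gut library, at 7.96 CPM in stomach and 9.99 CPM in duodenum against 354 CPM in liver (medians).

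Among the inhibitors, Cfi, the protease that inactivates C3b and C4b, marked the duodenum. It was between 834 and 1176 CPM in liver, 0 and 3.22 CPM in stomach (median 1.41) and 12.6 and 51.7 CPM in duodenum (median 45.2). No stomach library reached a duodenum library, and the difference was 4.82 ± 0.24 (log2 ± SE, adjusted p = 3.9e-22). The lowest duodenum value was again male control replicate 1, and the next was 39.9 CPM. C4bpb, the beta chain that binds protein S, went the other way, with medians of 4.13 CPM in stomach and 0.19 CPM in duodenum against 271 CPM in liver. Its partner C4bpa, the alpha chain, had a median of 576 CPM in liver and of 0 in both gut tissues, with 13 of 16 stomach and 13 of 15 duodenum libraries at 0. Serping1, the inhibitor of C1r and C1s, followed its targets with medians of 578, 70.3 and 32.4 CPM.

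Fibrinogen is built from all 3 chains, and in gut they parted. In liver, Fga (ENSRNOG00000024848) was between 4853 and 8174 CPM, Fgb (ENSRNOG00000007092) between 3019 and 5779 CPM and Fgg (ENSRNOG00000025074) between 2288 and 4975 CPM. In duodenum, Fga was between 4.99 and 39.4 CPM (median 12.3) in vehicle libraries, while Fgb and Fgg had medians of 0.366 and 0.184 CPM and reached 2.15 and 2.35 CPM. As a share of its own liver level, which removes gene length, Fga was at 0.275% in pooled duodenum against 0.0101% for Fgb and 0.0106% for Fgg. Over the 47 duodenum libraries of all doses, that share was between 0.0774% and 0.611% for Fga, and in 47 of 47 it exceeded the shares of Fgb, Fgg and the hepatocyte marker Alb in the same library. The smallest ratio of the Fga share to the Alb share was 1.38 and the median 71.9. Male control replicate 1 held the lowest Fga of all 47 libraries and, among vehicle libraries, the highest Fgb and Fgg. Stomach lacked all 3 chains at the threshold, and 9 of 16 vehicle libraries had no Fga count. The difference between stomach and duodenum was 7.11 ± 0.43 for Fga (log2 ± SE, adjusted p = 2.99e-19). Fga passed the low-count filter in duodenum and failed it in stomach, so the direction of this call was set in advance. Its size rests on few stomach counts, 22 over the vehicle libraries.

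**Figure D2:**
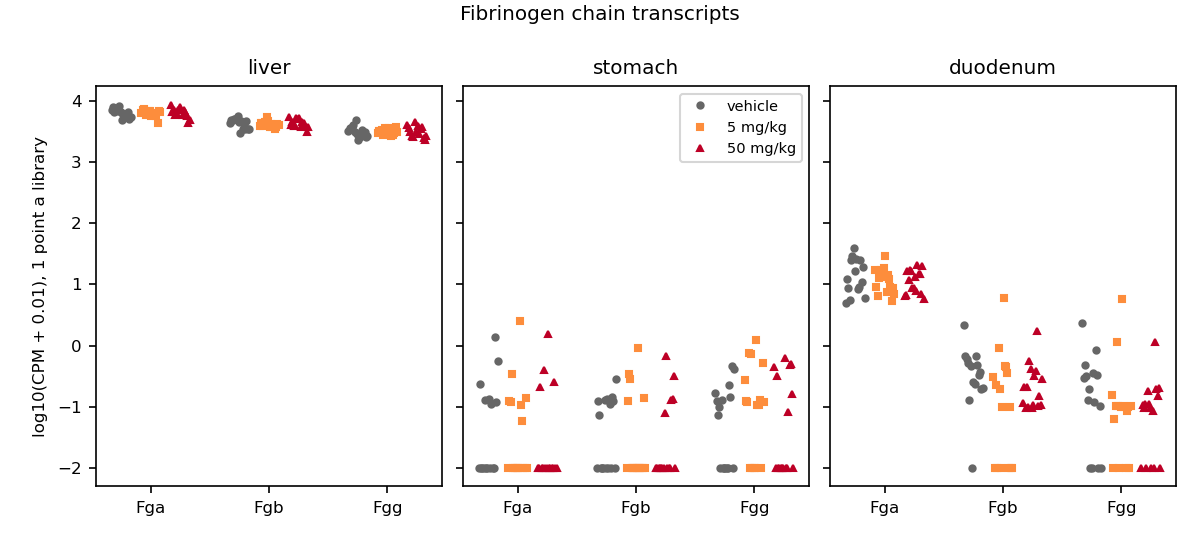
The 3 fibrinogen chain transcripts in every library of liver, stomach and duodenum, as log10(CPM + 0.01), with dose shown by symbol and points at -2 standing for 0 counts. In duodenum Fga lies between 4.99 and 39.4 CPM at every dose while Fgb and Fgg are near or under 1 CPM in most libraries; in liver the 3 chains are all above 2000 CPM.

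Contact factors and kininogen were hepatic. F11 and F12, the zymogens of the contact pathway, had liver medians of 159 and 620 CPM and no median above 0.742 CPM in gut. Kng1, the source of kinins, had 523 CPM in liver and at most 0.338 CPM in any vehicle gut library. Its close copy Kng1_v1, not a member, had higher liver medians, 1894 CPM in males and 4866 CPM in females. In vehicle stomach Kng1_v1 had medians of 0.57 and 0.741 CPM in males and females and reached 2.14 CPM, and in duodenum it reached 0.703 CPM. Klkb1, which encodes plasma prekallikrein, had a median of 241 CPM in liver and of 0 in gut, but 4 of 16 stomach and 3 of 15 duodenum libraries exceeded 1 CPM, up to 2.84 and 3.19 CPM. It was the liver-only member with the highest pooled gut share, 0.202% of liver in stomach and 0.211% in duodenum.

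On the tissue factor side, F3, the receptor that starts clotting when blood meets tissue, was one of the members found in gut only. It was between 12.4 and 20.9 CPM in stomach, 3.38 and 13.5 CPM in duodenum, and 0 and 1.18 CPM in liver. Stomach exceeded liver by 3.79 ± 0.17 and duodenum exceeded it by 2.47 ± 0.18 (log2 ± SE, adjusted p = 4.23e-24 and 5.43e-17). Its ligand F7, the protease that works with it, was the mirror image, with a median of 85.2 CPM in liver and at most 0.282 CPM in gut. F10, the protease that the pair activates, was likewise in liver only (646 CPM), while its cofactor F5 had 302 CPM in liver, 3.04 in stomach and 2.35 in duodenum and was present in every vehicle library. Prothrombin, F2, had 1921 CPM in liver and sat on the threshold in gut, at 0.899 CPM in stomach and 1.02 CPM in duodenum.

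F8, the cofactor of F9, separated from its enzyme: F9 had 690 CPM in liver and at most 0.305 CPM in a gut library, whereas F8 had medians of 14.3 CPM in liver, 34 in stomach and 27.3 in duodenum. F8 was the member that was not called between liver and either gut tissue, at -0.19 ± 0.15 against stomach (log2 ± SE, liver over stomach, adjusted p = 0.249) and 0.11 ± 0.16 against duodenum (adjusted p = 0.535), where plain CPM put duodenum higher, at 183% of liver. The subunits of factor XIII, the enzyme that crosslinks fibrin, parted in the same manner. F13a1, the catalytic A subunit, was between 9.6 and 35.3 CPM in stomach, 1.23 and 8.07 CPM in duodenum, and 0.0836 and 1.01 CPM in liver. F13b, the carrier subunit, had 277 CPM in liver and at most 0.976 CPM in gut.

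Of the anticoagulants, Serpinc1 (antithrombin) and Serpind1 (heparin cofactor II) were in liver only, at 2134 and 588 CPM. Protein C (Proc), the protease that inactivates F5 and F8, was found in stomach, between 5.18 and 21 CPM. In duodenum it was under the threshold, with a median of 0.574 CPM, though no vehicle library was without it. At a threshold of 0.5 CPM it would be in all 3 tissues. The difference between stomach and duodenum was 4.13 ± 0.19 (log2 ± SE, adjusted p = 7.77e-24). Proc passed the low-count filter in stomach and failed it in duodenum, so the direction of this call was set in advance. Protein Z (Proz), which helps to inhibit factor X, showed the opposite order, with a median of 2.88 CPM in duodenum and 0 in stomach. Pros1, the cofactor of protein C, was a liver and gut transcript with medians of 194, 53.6 and 22.9 CPM. Thrombomodulin, Thbd, the endothelial receptor that turns thrombin toward protein C, was between 25 and 54.8 CPM in stomach and 1.58 and 5.85 CPM in liver. Tfpi, the inhibitor of tissue factor with F7, had medians of 10.5 CPM in liver, 19.3 in stomach and 14.1 in duodenum. The sign of its tissue difference turned with the scaling: the fit put liver above stomach by 0.26 ± 0.09 (adjusted p = 0.00601) and above duodenum by 0.66 ± 0.09 (adjusted p = 4.54e-09), while plain CPM put both gut tissues above liver.

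In fibrinolysis the enzyme was higher in liver and its activator in gut. Plg, the zymogen of plasmin, was between 3143 and 4463 CPM in liver, with medians of 0.466 CPM in stomach and 1.46 CPM in duodenum. Plat, which converts it to plasmin, was between 18.4 and 33.8 CPM in stomach, 18 and 63.3 CPM in duodenum and 1 and 3.87 CPM in liver. Serpinf2, the inhibitor of plasmin, was hepatic (635 CPM) with 5.3 CPM in stomach and 1.71 CPM in duodenum. Hrg, a plasma protein that binds plasminogen and heparin, was in liver only, and Vtn (vitronectin), an adhesive protein that also limits the lytic pore, had 2427 CPM in liver, 10.8 CPM in stomach and 0.751 CPM in duodenum. In these bulk samples fewer cells of a type and less RNA per cell cannot be told apart.

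Hepatocyte markers were also read in the gut libraries, and not every one was confined to liver. Apoc3 had a duodenum median of 27 CPM and reached 1 CPM in 15 of 15 vehicle libraries. Serpina1 had a stomach median of 45.3 CPM and reached 1 CPM in 16 of 16. The list is therefore no measure of hepatocyte RNA alone. Of 11 such markers, pooled stomach levels ran from 0% (Tat) to 0.655% (Serpina1) of liver with a median of 0.0117%, and duodenum levels from 0.00501% (Cyp2e1) to 4.56% (Apoc3) with a median of 0.0117%. Median CPM was under 1 for 7 of the 11 in stomach and 8 of the 11 in duodenum, and Tat was at 0 in all 16 stomach libraries, which allows up to 0.00604% of liver (exact Poisson, 95%). The 18 members found in liver only had a median of 0.00555% of liver in stomach and 0.0137% in duodenum. Relative to Alb, at 0.0117% of liver in stomach and 0.00957% in duodenum, 27 of 48 members in stomach and 28 of 48 in duodenum had a pooled share more than 10 times higher, and 13 and 2 were at or below it. Of the members found in duodenum, C3, F2 and Plg were within 10 times of Alb there, at 0.0714%, 0.0574% and 0.0491%. Without male control replicate 1, F2 had a duodenum median under 1 CPM and would be in liver only, and C6 would be in liver and stomach. The part of hepatocyte RNA in the low gut values was not tested.

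**Figure D3:**
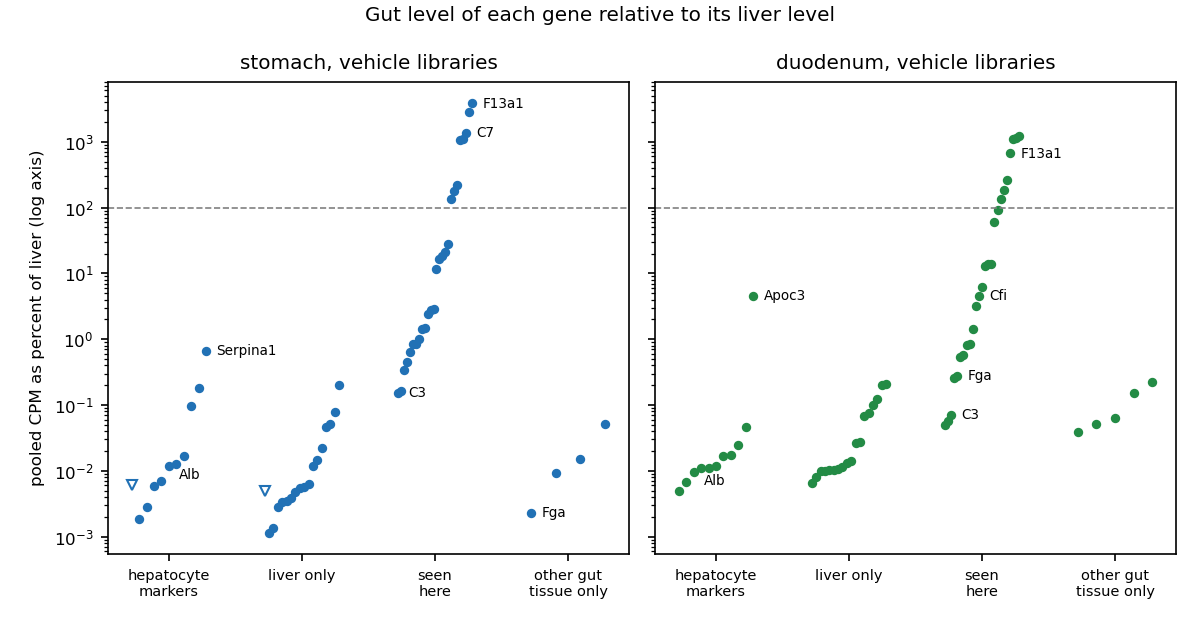
Pooled level of each gene in stomach and duodenum vehicle libraries as a percent of its liver level, on a log axis, for 11 hepatocyte markers and the 48 members (liver only, seen in the tissue of the panel, or seen in the other gut tissue only); open triangles are genes with 0 counts, drawn at the upper counting limit, and the dashed line is 100%. Members seen in a gut tissue run from near the hepatocyte markers (C3 at 0.155% in stomach, and C3, F2 and Plg at 0.0714%, 0.0574% and 0.0491% in duodenum) to far above liver (F13a1 at 3823% in stomach).

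The transcripts used also differed between tissues for some members. For each of 16 genes with more than 1 annotated transcript and at least 20 counts in 6 or more libraries on each side, the share of counts in the leading liver transcript was compared with gut, which gave 27 gene and tissue pairs. A two-sided permutation test of 100000 resamples called 14 of 27 at an adjusted p under 0.05, and in 5 of the 27 another transcript led in gut. The adjustment covered these 27 pairs only. Neither calls nor groups without overlap were counted over all genes, so these counts do not set the members apart. Some called differences were small, as for F5, at 98.8% in liver and 100% in both gut tissues. The gut shares of F5 rest on few counts, 456 in stomach and 412 in duodenum pooled over the vehicle libraries. Masp1 yields several proteins by alternative splicing, among them the proteases MASP-1 and MASP-3. Its leading liver transcript, ENSRNOT00000094154, held 55.0% ± 8.44 (SD, n = 16) of Masp1 counts in liver, 13.7% ± 8.21 (n = 13) in stomach and 8.89% ± 6.51 (n = 7) in duodenum. Another, ENSRNOT00000111260, held 41.6% in liver, 83.9% in stomach and 88.6% in duodenum. The groups did not overlap for the leading transcript, and the permutation p of both tests was 2e-05, the smallest these resamples can give (adjusted 7.71e-05). Which protein each transcript encodes was not determined here.

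Cfb was split in a similar way. Its leading liver transcript, ENSRNOT00000000477, held 92.3% ± 0.996 (SD, n = 16) of Cfb counts in liver, 79.1% ± 5.95 (n = 16) in stomach and 26.1% ± 8.95 (n = 15) in duodenum, without overlap between liver and either gut tissue (permutation p = 2e-05 for both, adjusted 7.71e-05). In duodenum ENSRNOT00000075928 and ENSRNOT00000060607 held 35.8% and 35.1% of Cfb counts, against 3.17% and 4.27% in liver. C2 neighbours Cfb in the genome, and whether counts of C2 enter the Cfb values was not tested. For C8g, with 9 annotated transcripts, the leading liver transcript held 58.9% in liver and 6.55% in stomach, where ENSRNOT00000095335 held 55.0%. In duodenum these transcripts held 32.7% ± 21.7 (SD, n = 15) and 33.02%, a tie that enters the count of 5 above, and the groups overlapped in both comparisons. The leading Tfpi transcript rose from 48.5% ± 7.46 in liver to 66.4% ± 7.44 in duodenum (n = 16 and 15, permutation p = 2e-05, adjusted 7.71e-05), also with overlap. Fga used the same transcript in liver (98.5%) and duodenum (97.9%), with a permutation p of 0.653. Shares of estimated counts between transcripts depend on how reads shared by transcripts were divided.

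In liver, the vehicle groups of the sexes differed for 18 of the 47 members tested (38.3%; F13a1 did not pass the filter on low counts), where 22.8% of all genes were called. Of the 18, 8 were higher in females (Kng1, F7, F5, Cfp, F10, Serpind1, C8a and F12) and 10 higher in males (F3, C9, Mbl1, Fgg, Fga, Fgb, Vtn, Proc, C8b and Pros1). The median over the members was -0.06 (log2, female over male) and over all genes 0.00284. Only 5 differed by at least 1.5-fold: Kng1, F7, C9, F5 and F3. The others were smaller, and those named beyond these 5 were chosen with their values seen.

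Kng1 (ENSRNOG00000030387) showed the widest gap. It was between 698 and 970 CPM (median 791) in the 8 female vehicle livers and between 221 and 348 CPM (median 248) in the 8 male ones. The groups did not overlap, and females were higher by 1.60 ± 0.13 (log2 ± SE, edgeR adjusted p = 6.99e-13), by 1.88 in batch 1 and 1.28 in batch 2. At the low dose, the female range was 584 to 938 CPM and the male range 211 to 299 CPM, and at the high dose 588 to 1113 and 192 to 304 CPM. A close copy of the gene, Kng1_v1, rose with it (1.34 ± 0.13, adjusted p = 3.83e-11), so the division of counts between the copies is uncertain. Summed, the copies were between 5101 and 6194 CPM in females and 1689 and 2456 CPM in males. Kininogen is cleaved to bradykinin and also carries prekallikrein in plasma.

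F7 (ENSRNOG00000032737), which starts clotting with tissue factor, was between 106 and 186 CPM in female and 44.5 and 64.4 CPM in male vehicle livers. These ranges were apart as well, with a difference of 1.25 ± 0.15 (log2 ± SE, adjusted p = 1.53e-08), and they were apart at both doses. Its neighbours in the genome differed less: F10 was higher in females by 0.42 ± 0.08 (adjusted p = 4.7e-05) with overlapping groups, and Proz was not called. F5, the cofactor of F10, was between 229 and 486 CPM in females and 71.9 and 318 CPM in males, 0.74 ± 0.25 higher in females (adjusted p = 0.0258). The F5 call was lost without male control replicate 5 (adjusted p = 0.0577), male control replicate 7 (0.0552) or female control replicate 3 (0.0616).

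C9 (ENSRNOG00000013736), which polymerises to form the lytic pore, was lower in females: 884 to 1384 CPM against 1353 to 1986 CPM in males, with a slight overlap. The difference was -0.68 ± 0.11 (log2 ± SE, female over male, adjusted p = 5.72e-06). F3 was between 0 and 0.925 CPM in females and 0.304 and 1.18 CPM in males, a difference of -0.87 ± 0.32 (adjusted p = 0.0416) that rests on few counts. Leaving out 1 library at a time kept the F3 call in 34 of 46 fits, and the adjusted p was highest, 0.0947, without male control replicate 2. The fibrinogen chains were each lower in females: Fga by -0.46 ± 0.10, Fgg by -0.50 ± 0.12 and Fgb by -0.43 ± 0.11 (adjusted p = 8.21e-04, 0.00156 and 0.00246), with overlapping groups. None was called in batch 1 alone, where Fgb differed by -0.23, and Fgg was not called in batch 2 alone (adjusted p = 0.0503). With 3 surrogate variables all were called, Fgb at -0.26 and Fgg at -0.26 (adjusted p = 0.027 and 0.0149). For Pros1, at -0.20, the call was lost without the filter on low counts (adjusted p = 0.132), without the batch term (0.388) and with the replicate block (0.0684), and it was kept in 36 of 46 fits without 1 library. Outside the fits of single batches and the fits that left out 1 library, the call was lost under at least 1 setting for 7 of the 18: F3, F5, Pros1, Cfp, F12, C8a and Mbl1. Of the 18 called members, 4 had vehicle groups without overlap (Kng1, F7, Serpind1 and C8a), which is 8.51% of the 47 tested, against 4.27% of all genes both called and without overlap.

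In batch 1 alone 5 members were called, and in batch 2 alone 10. The share of all genes called in these single-batch fits was not counted, so the 2 counts do not set the members apart. The dosed livers do not enter the vehicle difference itself, but they share its fit, which takes the spread and the batch term from all 46 libraries. There the ratio of female to male mean CPM had the same sign for 16 of the 18 at the low dose and 18 of 18 at the high dose. Liver macrophage and endothelial markers moved with sex too: 5 of 12 macrophage and 3 of 9 endothelial markers were higher in females, 4 of 8 fibroblast markers were lower, and 2 of 11 hepatocyte markers were higher and 4 lower, beside the 22.8% of all genes called. Each called macrophage and endothelial marker differed more in batch 2 than in batch 1, as Cd163 (1.54 against 0.14) and Kdr (0.87 against 0.20). The pancreatic acinar gene Cpa1 was 10.68 ± 0.73 higher in female vehicle livers (log2 ± SE, adjusted p = 1.22e-15). Their part in the differences of the members was not tested. No member differed between the sexes in gut at an adjusted p under 0.05: 0 of 28 in stomach, where 0.172% of all genes were called, and 0 of 29 in duodenum, where 0.079% were. By DESeq2 both counts were also 0. In each tissue 3 members had an unadjusted edgeR p under 0.05, beside 1106 (stomach) and 805 (duodenum) of all genes. The smallest p in stomach were those of Proc (-0.76 ± 0.26, adjusted p = 0.361) and F13a1 (0.43 ± 0.17, adjusted p = 0.475), and in duodenum those of Cfp (-0.31 ± 0.13, adjusted p = 0.803) and F13a1 (0.70 ± 0.30, adjusted p = 0.804).

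**Figure D4:**
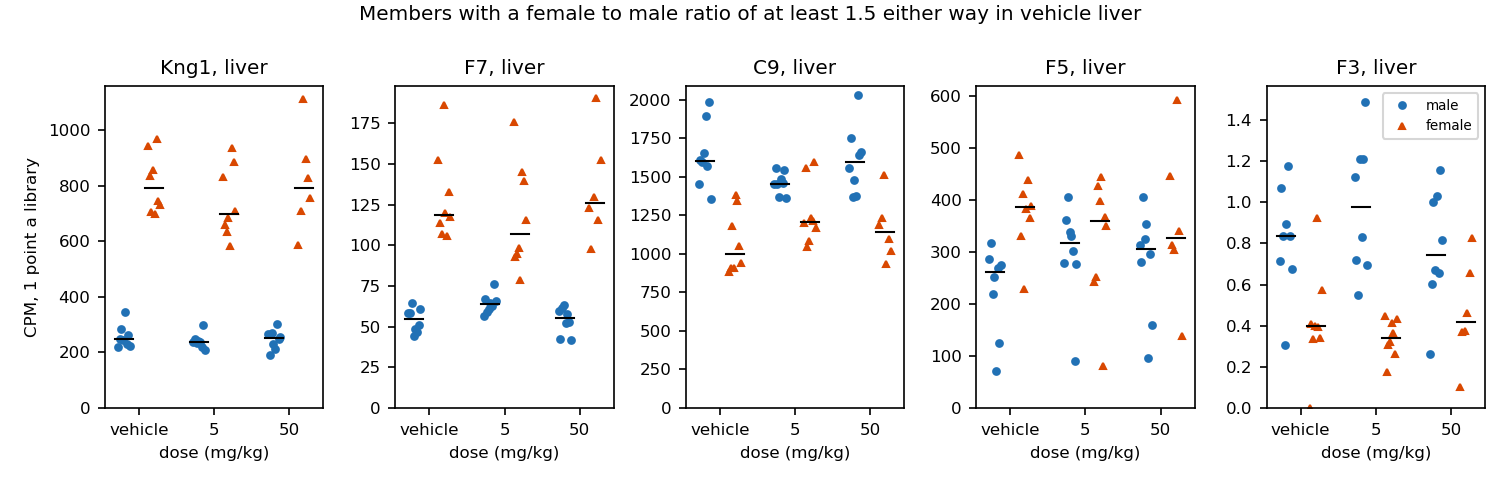
Level in CPM of the 5 members with a called sex difference of at least 1.5-fold in vehicle liver, for males (circles) and females (triangles) of each dose group, with 1 point for each library and a line at the median. Kng1 and F7 do not overlap between sexes at any dose, and C9, F5 and F3 do among vehicle libraries.

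Liver showed no member that changed with dose over both sexes. At the low and at the high dose 0 of 47 members were called by edgeR, as were 0% of all 13130 genes. DESeq2 called 0 members as well. In each, 1 member had an unadjusted p under 0.05, beside 272 (low) and 446 (high) of all genes. The members' median change was -0.04 at the low dose and -0.03 at the high dose (log2), and the widest single value was 0.31 and 0.28. The smallest p at the low dose belonged to F13b (-0.20 ± 0.08, adjusted p = 1) and C4bpa (-0.16 ± 0.08, adjusted p = 1), and at the high dose to Proz (-0.15 ± 0.06, adjusted p = 1) and Mbl1 (-0.20 ± 0.12, adjusted p = 1). C3 in liver had medians of 14810, 15846 and 13733 CPM in vehicle, low-dose and high-dose libraries. The high dose within males and within females gave 0 of 47 as well (0% of all genes in each, and 0 members by DESeq2). An unadjusted p under 0.05 was found for 2 members in males and 1 in females, beside 639 and 200 of all genes. In males C7 (0.53 ± 0.23) and Mbl1 (-0.36 ± 0.16) came first, each at an adjusted p of 0.924, and in females Proz (-0.22 ± 0.09) and Serping1 (-0.18 ± 0.13), each at an adjusted p of 1.

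The low-dose change differed between the sexes in liver for 3 of 47 members (6.38%), close to the 7.84% of all genes called. Mbl1, C4bpb and C9 were the 3. In males, Mbl1 (ENSRNOG00000011706) was between 190 and 459 CPM with vehicle and 173 and 210 CPM at the low dose, and in females between 151 and 217 CPM and 144 and 282 CPM. All 4 ranges overlap. The low-dose change was -0.56 ± 0.16 in males (adjusted p = 0.0922) and 0.18 ± 0.16 in females (adjusted p = 0.665), neither called, and its difference 0.74 ± 0.22 (log2 ± SE, adjusted p = 0.0408). C4bpb was between 180 and 554 CPM in male vehicle livers and 143 and 316 CPM at the low dose, and in females between 157 and 325 CPM and 215 and 695 CPM. Its changes were -0.62 ± 0.21 (adjusted p = 0.101) and 0.34 ± 0.21 (adjusted p = 0.606), a difference of 0.96 ± 0.30 (adjusted p = 0.0436). For C9 the male median went from 1599 to 1455 CPM and the female median from 996 to 1205 CPM, a difference of 0.46 ± 0.15 (adjusted p = 0.0494).

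All 3 calls were near the threshold and were lost in batch 1 alone, where the differences were 0.08, 0.15 and 0.22 for Mbl1, C4bpb and C9, against 1.40, 1.68 and 0.75 in batch 2. With the ribosomal protein share of each library as a covariate, the differences were 0.16, 0.04 and 0.23 and none was called. Without male control replicate 7 the adjusted p was 0.101 for Mbl1, 0.105 for C4bpb and 0.109 for C9. Single libraries ended the call of Mbl1 in 14, of C4bpb in 15 and of C9 in 27 of 46 fits. The sex difference in the high-dose change was called for 0 of 47 members and 0% of all genes in liver. DESeq2 called 0 members, and 0 members had an unadjusted p under 0.05, beside 307 of all genes. The smallest p were those of Cfb (0.17 ± 0.10) and Masp1 (-0.38 ± 0.24), each at an adjusted p of 0.997.

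In stomach, no member was called at any dose. At the high dose 680 of 15140 genes were called (4.49%) and 0 of 28 members. An unadjusted p under 0.05 was found for 5 members and 3610 of all genes. DESeq2 called 0 members and 1045 of all genes. The members' median change was 0.01, and that of all genes -0.01 (log2). Masp2 (0.64 ± 0.23, adjusted p = 0.0861) and C6 (0.60 ± 0.23, adjusted p = 0.107) had the smallest p, both near the threshold of 1 CPM. C3 in stomach had medians of 24, 20.6 and 22.6 CPM in vehicle, low-dose and high-dose libraries, and C7 of 158, 155 and 163 CPM. Within males at the high dose 7.06% of all genes and 0 of 28 members were called. An unadjusted p under 0.05 was found there for 5 members and 3838 of all genes, and DESeq2 called 0 members and 1392 of all genes. The smallest p were those of C1s (0.26 ± 0.11, adjusted p = 0.111) and Masp2 (0.74 ± 0.31, adjusted p = 0.129).

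The other stomach comparisons called 0% of all genes and 0 of 28 members each, by DESeq2 as well for the members. These were the low dose (3 members with an unadjusted p under 0.05), the high dose in females (1), and the sex differences in the low-dose (0) and high-dose change (1). Of all genes, 909, 880, 435 and 1187 had such a p, in the same order. F3 (0.26 ± 0.09, adjusted p = 0.584) and Cfd (0.70 ± 0.27, adjusted p = 0.748) had the smallest p at the low dose, and Masp1 (-0.94 ± 0.43) and C4bpb (-0.58 ± 0.30), each at an adjusted p of 0.848, in females at the high dose. For the sex differences these were C5 (1.25 ± 0.63) and C8g (0.35 ± 0.21) at the low dose, each at an adjusted p of 1, and C8g (0.44 ± 0.21, adjusted p = 0.637) and C1s (-0.29 ± 0.15, adjusted p = 0.652) at the high dose. The ribosomal protein share of stomach libraries was 2.96% ± 0.92 (SD, n = 16) in vehicle and 4.43% ± 1.71 (n = 16) at the high dose, and with that share as a covariate 0 of 28 members were called in each stomach comparison.

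In duodenum at the high dose 2 of 29 members (6.9%) were called, Tfpi and C3, against 16.3% of all 15189 genes. DESeq2 called 4 members and 3016 of all genes. An unadjusted edgeR p under 0.05 was found for 8 members and 4868 of all genes. Tfpi (ENSRNOG00000005039) was between 6.79 and 25.6 CPM (median 14.1) in the 15 vehicle libraries, 5.48 and 21.3 CPM (median 15.6) in the 16 low-dose libraries and 13.5 and 25.5 CPM (median 17.6) in the 16 high-dose libraries. The groups overlap, with the lowest values missing at the high dose. The rise was 0.33 ± 0.10 (log2 ± SE, adjusted p = 0.0235), near 1.26-fold, at 0.33 ± 0.14 in males and 0.34 ± 0.15 in females. It was 0.12 in batch 1 and 0.30 in batch 2, neither called, and it was not called without male high-dose replicate 5 (adjusted p = 0.0514) or female control replicate 7 (0.0516). Tfpi blocks the first step of clotting.

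C3 (ENSRNOG00000046834) was between 2.65 and 49.7 CPM (median 7.13) in vehicle, 1.17 and 32.9 CPM (median 6.46) in low-dose and 1.15 and 11.5 CPM (median 3.79) in high-dose duodenum. Its high-dose change was -1.07 ± 0.38 (log2 ± SE, adjusted p = 0.0492), at -1.72 ± 0.55 in males (adjusted p = 0.0803). The vehicle value of 49.7 CPM belongs to male control replicate 1, and the next highest male control had 10.1 CPM. Without that library the change was -0.73 (adjusted p = 0.154), and without female control replicate 6, at 24.1 CPM, it was -0.77 (adjusted p = 0.152). The call was kept in 16 of 47 fits that each left out 1 library. Within batch 1 the change was -0.30 and within batch 2 -1.64, neither called. Hepatocyte markers in the same duodenum groups had summed medians of 63.5, 29.6 and 45.7 CPM, pancreatic acinar markers 570, 1788 and 362 CPM, and macrophage markers 891, 1103 and 1307 CPM at vehicle, low and high dose. The hepatocyte sum includes Apoc3, which was not confined to liver. Apoh, Tdo2, Tat and Cyp2e1 alone had summed medians of 0.567, 0.249 and 0.427 CPM in the same order. The ribosomal protein share was 3.81% ± 0.67 (SD, n = 15), 4.40% ± 0.81 (n = 16) and 5.48% ± 1.53 (n = 16). With that share as a covariate the high-dose change was -0.60 for C3 and 0.21 for Tfpi, and neither was called.

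The remaining duodenum comparisons called 0 of 29 members and 0% of all genes each, with 0 members by DESeq2. They had 3 members (low dose), 4 (high dose in males), 3 (high dose in females), 2 (sex difference in the low-dose change) and 1 (sex difference in the high-dose change) at an unadjusted p under 0.05. Of all genes, 2132, 3650, 2048, 623 and 302 had such a p, in the same order. DESeq2 called 976 of all genes for the high dose in males. C8g (-0.44 ± 0.16, adjusted p = 0.243) and Masp1 (-0.79 ± 0.29, adjusted p = 0.254) had the smallest p at the low dose. In males at the high dose these were C3, above, and Tfpi (adjusted p = 0.148), and in females Tfpi (adjusted p = 0.331) and Cfb (-0.38 ± 0.18, adjusted p = 0.346). The sex difference had its smallest p for Plg, at 2.10 ± 0.63 for the low dose and 1.41 ± 0.62 for the high dose, each at an adjusted p of 1, followed by Cfb (0.55 ± 0.25, adjusted p = 1) and C3 (1.31 ± 0.78, adjusted p = 1). Plg was at 9.6 CPM in male control replicate 1 and 10.0 CPM in female low-dose replicate 1, against a median of 1.46 CPM in the other 45. Fga in duodenum, absent from these calls, had medians of 12.3, 12.4 and 12.5 CPM in vehicle, low-dose and high-dose libraries.

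**Figure D5:**
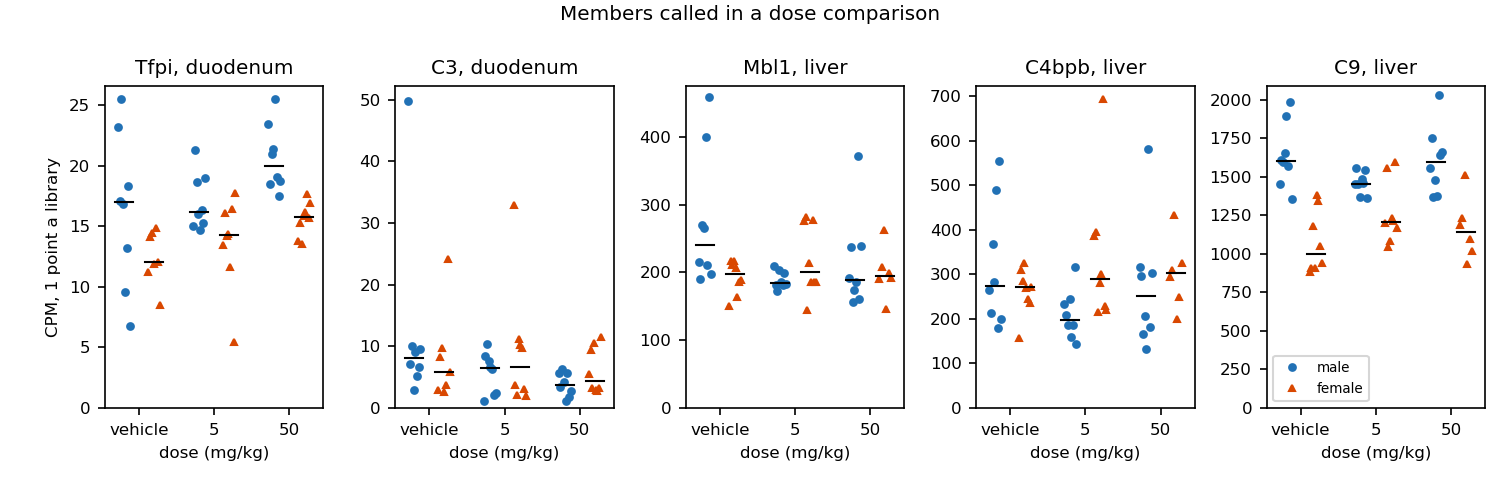
Level in CPM of the members called in a dose comparison, Tfpi and C3 in duodenum and Mbl1, C4bpb and C9 in liver, for males (circles) and females (triangles) at each dose, with 1 point for each library and a line at the median. The vehicle C3 value of 49.7 CPM stands alone, and the high-dose Tfpi values begin at 13.5 CPM.

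Other genes of these pathways were read from lists of related genes. In vehicle liver, where 22.8% of all genes were called between the sexes, 2 of 9 measured genes of complement initiation were higher in females, C4a (0.74 ± 0.15, adjusted p = 1.77e-04) and C4b (1.25 ± 0.23, adjusted p = 6.96e-05), which are close copies whose counts may be divided between them, and 0 were lower. Of 10 complement regulators and receptors, 1 was higher and 2 were lower in females: Cpn1 (0.33 ± 0.08), Cd46 (-0.80 ± 0.08) and Clu (-0.26 ± 0.07). Of 17 other coagulation genes, Vkorc1, the target of warfarin, was higher (0.46 ± 0.16) and Cpb2, the fibrinolysis inhibitor TAFI, lower (-0.53 ± 0.10). Acute-phase genes split 4 higher and 3 lower of 14, among them Itih4 (0.91 ± 0.11) and Hp (-0.75 ± 0.12). In the liver sex difference at the low dose (7.84% of all genes called), S100a10, a plasminogen receptor subunit, was called (1.17 ± 0.35, adjusted p = 0.0408), as were the hepatocyte markers Ttr (0.80 ± 0.20) and Apoh (0.78 ± 0.23).

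At the high dose 4.49% of all genes were called in stomach, 7.06% in stomach males and 16.3% in duodenum. Stomach S100a10 was higher (0.62 ± 0.16, adjusted p = 0.0254) and Lman1, a cargo receptor for F5 and F8, lower (-0.20 ± 0.06, adjusted p = 0.0349), and in males C1qa (0.44 ± 0.14) and C1qc (0.50 ± 0.14), chains of the C1q complex made by macrophages, were higher (adjusted p = 0.0453 and 0.0271). In duodenum Plaur, the receptor of urokinase, was lower (-0.91 ± 0.22, adjusted p = 0.0112), as was F2rl1, a receptor cleaved by clotting proteases (-0.40 ± 0.09, adjusted p = 0.0104). Lyz2 was higher in both stomach and duodenum over both sexes (0.51 ± 0.11 and 0.75 ± 0.18). It was the only gene of the macrophage marker list called in either of these comparisons. No gene of the complement, coagulation or acute-phase lists was called in a liver dose comparison over both sexes or within a sex at the high dose.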

How the data were processed

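Polyadenylated RNA of liver, stomach and duodenum was measured in 46, 48 and 47 libraries. The authors deposited estimated counts (expected counts) per gene and per transcript in 1 table each per tissue, made with tools that per the submitters' processing notes include Salmon 1.10.3 and STAR 2.7.11b on build mRatBN7.2. Values are often fractional. The notes also name UMI-tools 1.1.5, Trim Galore 0.6.10, cutadapt 4.9, MultiQC and FastQC 0.12.1. No source used here gives their roles or settings, the annotation or the strand, so genes that overlap or have close copies may share counts.

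Expected counts were rounded and fitted per tissue with edgeR 4.0.16 (R 4.3.3): filterByExpr (minimum count 10, total 15), TMM scaling, a term for each sex and dose group and for batch, glmQLFit and glmQLFTest, and Benjamini-Hochberg adjustment over all genes of the tissue. Vehicle libraries of the 3 tissues were joined in 1 fit for tissue differences. CPM are counts scaled to a library total of 1000000, without TMM. Intervals and floors cover counting error only. The filter kept 47 of 48 members in liver, 28 in stomach and 29 in duodenum. Transcript shares used a permutation test of 100000 resamples (scipy). The scripts were tested on simulated data.

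The members and lists were chosen with earlier results of these data known. Named were all members with their tissue class, called members in each dose comparison or else the 2 with the smallest p, called members with at least 1.5-fold in sex comparisons, and up to 4 called genes per other list. Alternatives were DESeq2 1.42.0, its size factors, no filter, no batch term, a replicate block, single batches, leaving out batch 3 or 1 library, 3 surrogate variables (sva 3.50.0), the ribosomal protein share, and other CPM and count thresholds. Leaving out duodenum male control replicate 1 in the tissue classes and the low-dose values within each sex were added after seeing the data. RefSeq tables (GRCr8) gave promoters and neighbours. No deposited column was left without a sample (0). One gene of the other lists and a motif are not reported here.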

Additional observations from a re-analysis of the deposited data

Results flagged for a closer look

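For 11 members in liver, 5 in duodenum and 3 in stomach, each group of 1 tissue, sex and dose was examined for a library far from the others, 114 groups in all. In 12 the highest or lowest library lay further away than Dixon's 95% limit allows, and chance gives about 1 in 20. C3 stood out most often: duodenum male control replicate 1 had 49.7 CPM where the next had 10.1, duodenum female control replicate 6 had 24.1 (next 9.80), duodenum female low-dose replicate 1 had 32.9 (next 11.3) and stomach male high-dose replicate 1 had 54.1 (next 27.8). In duodenum, Cfi was low in male control replicate 1, at 12.6 CPM where the next was 39.9, and Fga was high in female low-dose replicate 1, at 29.4 (next 14.3).

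In liver, male low-dose replicate 7 was high for Kng1, at 299 CPM (next 248), and low for F5, at 89.5 (next 276). Male high-dose replicate 6 was high for both Mbl1, at 371 CPM (next 240), and C4bpb, at 582 (next 316), and female low-dose replicate 6 for C4bpb, at 695 (next 396). C7 was high in stomach female high-dose replicate 5, at 304 CPM (next 195).

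The low-dose change in liver differed between females and males for Mbl1 by 0.74, for C4bpb by 0.96 and for C9 by 0.46 (log2, edgeR interaction test, adjusted p = 0.0408, 0.0436 and 0.0494).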

How the results depend on the processing

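None of the 23 single-gene changes within a tissue changed direction under the alternatives run; between tissues, the sign of Cfd and Tfpi (liver and stomach) and of F8 and Tfpi (liver and duodenum) differs between plain CPM and the fit. Of the single-gene changes, 163 kept and 67 lost their call under other settings, and 944 kept and 116 lost it when 1 library was left out. The 18 liver sex calls became 5 in batch 1 alone and 10 in batch 2 alone (15 to 20 without 1 library). The 3 calls of the liver sex difference at the low dose became 9 by DESeq2, 6 in batch 2 alone, 1 without the low-count filter, and 0 without the batch term, in batch 1 alone, with 3 surrogate variables or with the ribosomal protein share (0 to 8 without 1 library). The 2 duodenum high-dose calls became 4 by DESeq2, 1 without the filter or without batch 3, and 0 without the batch term, in either batch alone, with 3 surrogate variables or with the ribosomal share (0 to 5 without 1 library; 0 without male high-dose replicate 5 or female control replicate 7, 5 without male high-dose replicate 6). For the high dose, 0 calls became 0 to 1 in stomach (1 without male control replicate 6 or female high-dose replicate 5), in stomach males (1 without male control replicate 8) and in duodenum males (1 without male control replicate 7 or male high-dose replicate 6). With the replicate block 0 members were called in the liver sex difference at the low dose and 1 in duodenum at the high dose. By DESeq2, 1948 of all genes were called in the liver sex difference at the low dose, against 1030 by edgeR. In duodenum at the high dose these were 3016 and 2481. Shares of all genes under the remaining settings were not counted, so these counts do not set the members apart. Same-numbered libraries were not shown to be pairs: their deviations correlated between -0.28 and 0.38 over 92 pairs, with 36 over 0.1 and 13 libraries best matched to their own number. Members in liver and gut numbered 18 at 5 CPM, and gut-only members 1 at 0.5 CPM and 4 at 5 CPM, where Thbd and Plat joined F3 and F13a1. With 50 counts for transcript shares, 9 pairs were called in place of 14. The causes of these shifts were not tested. Low counts limit the gut values of liver-only members.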
